A study of Homo sapiens with 12 samples.

Results

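The small nucleolar RNA (snoRNA) genes described here were the rows of the gene count table whose Ensembl identifier carried a symbol beginning with SNORD (box C/D snoRNAs) or SNORA (box H/ACA snoRNAs) and that held at least 10 raw counts in at least 2 of the 12 libraries. They numbered 116 of the 60651 rows of the table. There were 528 rows with such a symbol, of which 53 of 314 SNORD rows and 63 of 214 SNORA rows met the rule, so that members were chosen by their raw counts. RNA sequencing covered EGI-1 and HUCCT1, which are established human cholangiocarcinoma (bile duct cancer) lines labelled as wild type. EGI-1 cells received DMSO vehicle, 0.5 μM decitabine (a nucleoside that depletes DNA methyltransferases), 200 nM talazoparib (a PARP inhibitor) or both drugs together, and HUCCT1 cells received DMSO vehicle or 1 μM decitabine. All exposures lasted 72 h and each of the 6 groups held 2 libraries. The decitabine dose therefore differed between the lines. No source used here says that the 2 libraries of a group came from separate cultures, so the p-values below measure only the spread between these libraries.

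snoRNAs are short nuclear RNAs that pair with ribosomal RNA (rRNA) and direct enzymes to chosen nucleotides. Box C/D snoRNAs work with the methyltransferase fibrillarin, whereas box H/ACA snoRNAs work with the pseudouridine synthase dyskerin, and a few, such as U3 (the SNORD3 genes) and U17 (the SNORA73 genes), act in the cleavage of the rRNA precursor. Most human snoRNAs are released from introns of a host gene after splicing, while U3 genes have promoters of their own.

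The libraries held 23139065 to 34965627 counts, and the 116 members together took 2615 to 4091 of them. The names of EGI-1 and HUCCT1 libraries carry different codes whose meaning is not stated, so the line and whatever the code marks cannot be told apart. Epithelial bile duct markers were present in both lines, although KRT7 ranged from 39.0 to 69.5 CPM (counts scaled to library size) in EGI-1 and from 4032 to 7507 CPM in HUCCT1, and CFTR was near 0 in EGI-1 (at most 0.296 CPM). The hepatocyte marker ALB stayed at or below 0.108 CPM, while the leukocyte markers PTPRC and CD3E stood at 12.5 and 4.87 CPM (381 and 148 counts) in EGI-1 combination replicate 2, against at most 7 and 4 counts in the other EGI-1 libraries. That library therefore stands apart, and values without it are given with the combination below. In HUCCT1, PTPRC had 3 or 4 counts in every library, and CD3E had 0 and 1 with vehicle and 17 and 23 with decitabine. All CPM values are scaled by the trimmed mean of M values (TMM). The libraries were described as made with a total RNA kit, and many mature snoRNAs are shorter than the fragments such kits favour. The labels name Trizol for the extraction and the study's methods a column kit, and the part of the reagent in the snoRNA counts was not tested. Counts on an intronic snoRNA row can come from the snoRNA or from unspliced host RNA, and the table does not separate these sources.

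The sequences that the results turn on are given below as reference sequence on GRCh38, 5′ to 3′. Capitals mark box C (TGATGA, searched in the first 20 bases) and box D (CTGA, searched in the last 15 bases) in box C/D rows. In box H/ACA rows they mark the ACA box (searched in the last 6 bases). Each was searched on the strand of the row alone. The U3 body holds a TGATGA outside its window, left in lower case, so an unmarked row can still hold the sequence. The first set holds abundant members: the body of U3 as it stands at the start of the SNORD3A row (chr17:19188016-19188232, plus strand), SNORD17 (chr20:17962710-17962946, minus strand) and SNORA73B (chr1:28508559-28508762, plus strand).
SNORD3A, U3 body: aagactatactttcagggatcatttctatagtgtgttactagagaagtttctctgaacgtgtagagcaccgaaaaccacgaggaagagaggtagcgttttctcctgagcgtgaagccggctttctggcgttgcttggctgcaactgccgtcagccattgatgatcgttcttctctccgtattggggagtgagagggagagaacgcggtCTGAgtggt
SNORD17: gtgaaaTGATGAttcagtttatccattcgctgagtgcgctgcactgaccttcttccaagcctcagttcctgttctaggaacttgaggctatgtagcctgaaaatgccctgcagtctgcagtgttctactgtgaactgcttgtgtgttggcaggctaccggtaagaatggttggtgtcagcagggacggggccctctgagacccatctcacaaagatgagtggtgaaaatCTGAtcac
SNORA73B: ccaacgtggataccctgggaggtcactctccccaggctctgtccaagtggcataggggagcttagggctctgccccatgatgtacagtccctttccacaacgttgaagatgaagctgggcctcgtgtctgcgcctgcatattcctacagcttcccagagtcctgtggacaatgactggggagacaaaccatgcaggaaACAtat

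The second set holds members that differed between the lines or under decitabine, and for comparison the SNORD39 row in RAMP1, called in neither. These were the SNORD39 rows in MIR31HG (chr9:21524307-21524382, minus strand) and in RAMP1 (chr2:237869904-237869982, plus strand), SNORA80B in ODC1 (chr2:10446714-10446849, minus strand), SNORA28 in EIF5 (chr14:103337849-103337974, plus strand), SNORD65C opposite IGF2BP3 (chr7:23396446-23396516, plus strand) and the 3 members in introns of RPS12 (chr6:132815307-132815379, chr6:132816802-132816877 and chr6:132817219-132817348, plus strand).
SNORD39 in MIR31HG: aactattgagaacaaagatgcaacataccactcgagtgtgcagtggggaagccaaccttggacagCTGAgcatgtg
SNORD39 in RAMP1: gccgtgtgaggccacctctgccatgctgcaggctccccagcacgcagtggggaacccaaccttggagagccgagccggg
SNORA80B: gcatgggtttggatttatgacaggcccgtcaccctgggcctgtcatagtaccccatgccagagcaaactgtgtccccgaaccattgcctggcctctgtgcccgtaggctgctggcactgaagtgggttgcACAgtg
SNORA28: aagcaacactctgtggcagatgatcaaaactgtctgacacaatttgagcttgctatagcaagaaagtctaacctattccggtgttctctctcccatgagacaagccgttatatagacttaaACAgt
SNORD65C: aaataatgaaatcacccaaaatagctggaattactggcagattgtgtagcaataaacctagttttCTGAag
SNORD101: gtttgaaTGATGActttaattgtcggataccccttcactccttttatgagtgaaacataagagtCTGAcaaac
SNORD100: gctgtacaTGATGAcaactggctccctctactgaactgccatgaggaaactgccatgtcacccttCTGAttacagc
SNORA33: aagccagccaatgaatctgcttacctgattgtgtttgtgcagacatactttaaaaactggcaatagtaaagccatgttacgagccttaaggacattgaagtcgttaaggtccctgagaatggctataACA

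The symbol SNORD39 stands on 4 rows, of which 2 were members. These 2 were 62% identical, and of them the row in MIR31HG alone held a box D in the window. The U3 bodies in the 4 U3 rows were far more alike, but the rows are 581 to 791 bases long and hold 364 to 574 bases outside the body, so that their counts need not be U3 alone. Counted from 1 at the 5′ end of the 217-base body in SNORD3A, SNORD3B-1 and SNORD3B-2 both carried A78C and SNORD3C carried G108A. The table does not state how reads that fit several U3 copies were assigned, and values of single U3 rows are therefore uncertain. With the windows laid on the whole row, both boxes were found in 26 of 53 box C/D members (49.1%) and in 64.4% of the 261 other SNORD rows. The ACA box was found in 53 of 63 box H/ACA members (84.1%) and in 80.8% of the 151 other SNORA rows. Among members whose symbol stands on several rows, boxes C and D were found together in 0 of 5 and the ACA box in 7 of 12. In all, 28 members had another row at least 90% identical.

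Rows that lay wholly within an exon of another gene were nearly all at 0, and other places held rows of both kinds. Of 228 rows inside an intron, 92 were members and 83 were at 0 in all 12 libraries. Of 177 rows that lay wholly within an exon of a gene on the same strand, 174 were at 0 and 1, SNORA13 in EPB41L4A-AS1, was a member. At 0 too were 19 of 34 rows partly in an exon and 37 of the 89 other rows, which lay in no gene on the same strand. Some of these 89 rows lay opposite a gene. Whether the counting step dropped reads shared with the surrounding exon was not tested. The rows at 0 included well-known snoRNAs such as SNORD118 (U8), SNORA73A, SNORA81, SNORD48 and SNORD32A. A row at 0 thus says that the table assigned no read to it, not that the snoRNA was absent. Symbols from SNORD113 to SNORD116, best known for copies in imprinted clusters, stood on 122 rows, of which 111 were at 0 and 2 were members, with at most 14 counts in any library. These 2 were a SNORD116 row in MVB12B on chromosome 9 and a SNORD115 row opposite SVIL on chromosome 10, outside the clusters.

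The members were low in this table. The median member had a mean of 17.1 counts in box C/D and 15.7 counts in box H/ACA, 99 of 116 had a mean under 50 counts, and 44 held at least 10 counts in every library. At the edge of the rule, 10 members reached 10 counts in exactly 2 libraries, with means of 4.33 to 7.08 counts, and 9 rows reached it in 1 library and stayed outside, with means of 3.33 to 5.17 counts. The rule was met within both lines by 78 members, within EGI-1 alone by 28, within HUCCT1 alone by 7 and only across the lines by 3. EGI-1 contributed 8 libraries and HUCCT1 4, so the rule favoured genes counted in EGI-1.

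A few genes held a large share of the counts, with 29.9% in the 6 box C/D members and 17.5% in the 6 box H/ACA members of highest mean CPM. SNORD17, whose row lies in an intron of OVOL2, was the most abundant member, with 360 and 365 counts in EGI-1 vehicle libraries, 376 and 368 with decitabine, 365 and 482 with talazoparib and 307 and 347 with the combination. In HUCCT1 it had 579 and 564 counts with vehicle and 672 and 840 with decitabine, so every HUCCT1 library exceeded every EGI-1 library. It took 13.2% of all member counts, followed by SNORA73B (U17, in RCC1) with 8.08%. Per kilobase of the row, SNORD17 stood at 67 CPM, SNORA73B at 47.8, SNORD12C in ZFAS1 at 33.7 and SNORD101 in RPS12 at 24.5, against a median of 4.42 over the members and a lowest value of 1.08. The other box C/D members among these 6 were SNORD3B-1, SNORD3A, SNORD83A in RPL3 and SNORD14A in RPS13. The other box H/ACA members were SNORA74D in MATR3, SNORA71B in SNHG17, SNORA79B in CCNB1IP1, SNORA80B in ODC1 and SNORA66 in RPL5.

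Most members lay inside another gene. Of the 116 members, 96 lay inside a gene on the same strand, in 81 distinct genes, and 12 of the 96 lay in ribosomal protein genes. Where several such genes contained a member, the longest was taken as its host. SNORA73B, also inside SNHG3, was thus given RCC1, and SNORA74D, also inside SNHG4, was given MATR3. A protein-coding host held 83 members and a long non-coding host 12. A further 14 members lay only inside a gene on the opposite strand, and 6 lay in no annotated gene.

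Summed over all members, the level in EGI-1 was highest with vehicle, at 129.5 and 120.2 CPM. It was 116.0 and 114.4 CPM with decitabine, 118.2 and 116.5 CPM with talazoparib and 106.8 and 111.6 CPM with the combination. CPM is relative to the RNA sequenced, so less snoRNA in each cell and a change in other RNA cannot be told apart. The libraries of each treated group lay below both vehicle libraries, which all 3 comparisons share. Among all tested genes, libraries did not overlap with vehicle, in either direction, for 38.7% with decitabine, 49.3% with talazoparib and 60.3% with the combination. The mean sums of the members differed from vehicle by -7.74%, -6.05% and -12.6%. In an exact two-sided permutation test each difference had p = 0.333, which is the smallest p that 2 against 2 libraries allow. Of 7 tested bile duct markers, KRT7 (log2 fold change 0.57) and SOX9 (0.44) were called higher with decitabine and SOX9 (0.59) with talazoparib. Of 3 tested markers of other cell types, VWF (0.78) was called higher with talazoparib. The part of these markers in the sums was not tested. In HUCCT1 the sums were 130.1 and 121.6 CPM with vehicle and 126.9 and 138.1 CPM with decitabine, and the groups overlapped (exact permutation test, p = 0.667).

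**Figure D1:**
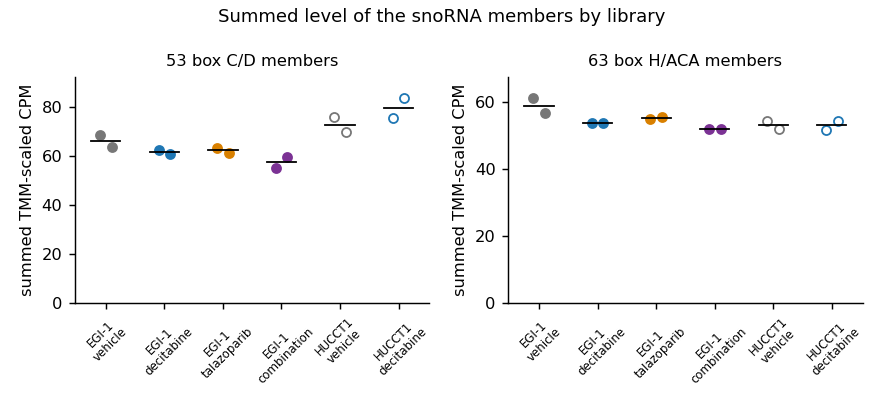
Summed TMM-scaled CPM of the 53 box C/D members (left) and the 63 box H/ACA members (right) in each library (points) with the mean of each group (lines), on axes that start at 0. Treated EGI-1 libraries lie below both vehicle libraries in each class, from a mean of 66.1 CPM with vehicle to 57.3 CPM with the combination in box C/D and from 58.8 to 51.8 CPM in box H/ACA.

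Gene by gene, no member was called with either drug alone in EGI-1. With decitabine, 0 of 100 tested members passed an adjusted p of 0.05 in edgeR's quasi-likelihood test, where 0.544% of all genes and 0.071% of genes with a mean count under 50 did. Of these 100 members, 85 had a mean under 50 counts. At an unadjusted p under 0.05 there were 3 members, and DESeq2 called 0. DESeq2's default filter can leave rows of low mean count without an adjusted p, so its counts of called members may cover fewer members. The median log2 fold change was -0.27 for box C/D (-0.12 without decitabine replicate 2, -0.13 without vehicle replicate 1 and -0.12 with scaling on the members alone), -0.14 for box H/ACA (turning to 0.004 when libraries were scaled on the members alone) and 0.00 for all genes, and 69 of 100 members had a negative value. With talazoparib, 0 of 100 members passed the test, against 4.12% of all genes and 0.52% of genes with a mean count under 50, 3 had an unadjusted p under 0.05 and DESeq2 called 0, while 1, SNORD3A, was called when the compared groups were fitted alone. The medians were -0.18 for box C/D (-0.10 without vehicle replicate 1 and -0.066 with scaling on the members alone) and -0.08 for box H/ACA. The latter turned to 0.03 with scaling on the members alone and to 0.04 without vehicle replicate 1. Standard errors were wide: the median was 0.41 for members and 0.18 for all genes in the decitabine comparison, so small changes of single members were not detectable at this depth.

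With the combination, 1 of 100 members passed edgeR's quasi-likelihood test against vehicle, where 18.7% of all genes passed, 7.61% with a lower level, as did 6.74% of genes with a mean count under 50. This was SNORD3A, one of the U3 rows. Its counts were 153 and 123 with vehicle, 136 and 93 with decitabine, 82 and 104 with talazoparib and 65 and 108 with the combination. As CPM the values were 5.02 and 4.42 with vehicle and 2.65 and 3.55 with the combination, and the groups did not overlap. The log2 fold change was -0.60 ± 0.20 (SE, n = 2 and 2, adjusted p = 0.045 in edgeR's quasi-likelihood test), 1.52-fold lower. The call was lost in 8 of 12 alternatives, among them without either vehicle library or without combination replicate 1 (adjusted p = 0.277, the highest of all alternatives), with scaling on the members alone (-0.40, adjusted p = 0.166) and by a small margin with relative log expression scaling (adjusted p = 0.0503), and DESeq2 called 0 members. With talazoparib alone SNORD3A stood at -0.58 (adjusted p = 0.13), and with decitabine alone at -0.25. Summed over the 4 U3 rows, vehicle libraries held 17.2 and 14.6 CPM and combination libraries 11.7 and 14.7 CPM, which overlapped (exact permutation test, p = 0.667).

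The other members were not called with the combination, and their log2 fold changes ranged from -1.77 to 0.85. In all, 5 members had an unadjusted p under 0.05. The medians were -0.22 for box C/D and -0.25 for box H/ACA against -0.02 for all genes, and 73 of 100 members had a negative value where 53% of all genes did. Both medians stayed negative in every alternative run for this comparison, at -0.01 and -0.04 with scaling on the members alone. Markers moved with the combination too, with KRT7, KRT8 and SOX9 higher among 7 tested bile duct markers and VWF (1.64) and COL1A1 (0.64) higher among 3 tested markers of other cell types, and their part in the snoRNA values was not tested. Counted without a test, 39 of 100 members had libraries that did not overlap between combination and vehicle, against 60.3% of all genes. The other U3 rows gave -0.07 for SNORD3B-1, -0.19 for SNORD3B-2 and -0.33 for SNORD3C, none of which passed. Against decitabine alone, 0 of 100 members were called (7.68% of all genes and 1.31% of those with a mean count under 50), and against talazoparib alone 0 of 100 (1.92% and 0.39%), with 3 members at an unadjusted p under 0.05 in each and 0 called by DESeq2. The difference between the effect of both drugs and the added effects of each drug was called for 0 of 100 members and 0.161% of all genes (0 of those with a mean count under 50), with 2 members at an unadjusted p under 0.05 and 0 called by DESeq2.

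Without combination replicate 2, the library with leukocyte markers, the combination group held a single library. The spread then came from the other groups, so log2 fold changes alone are given. Against vehicle, SNORD3A stood at -0.84 and SNORD3C at -1.15, and the medians were -0.33 for box C/D and -0.24 for box H/ACA. Against decitabine alone SNORA80E then stood at 3.23, with 17 and 10 counts with the combination and 2 and 2 with decitabine. The filter on low counts had kept it out of the fit of all EGI-1 libraries. It reached 10 counts in 3 libraries, both combination libraries among them, so its direction follows in part from how members were chosen. Summed over the 8 markers of other cell types, combination libraries held 60.4 and 70.2 CPM and vehicle libraries 36.1 and 34.8 CPM.

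**Figure D2:**
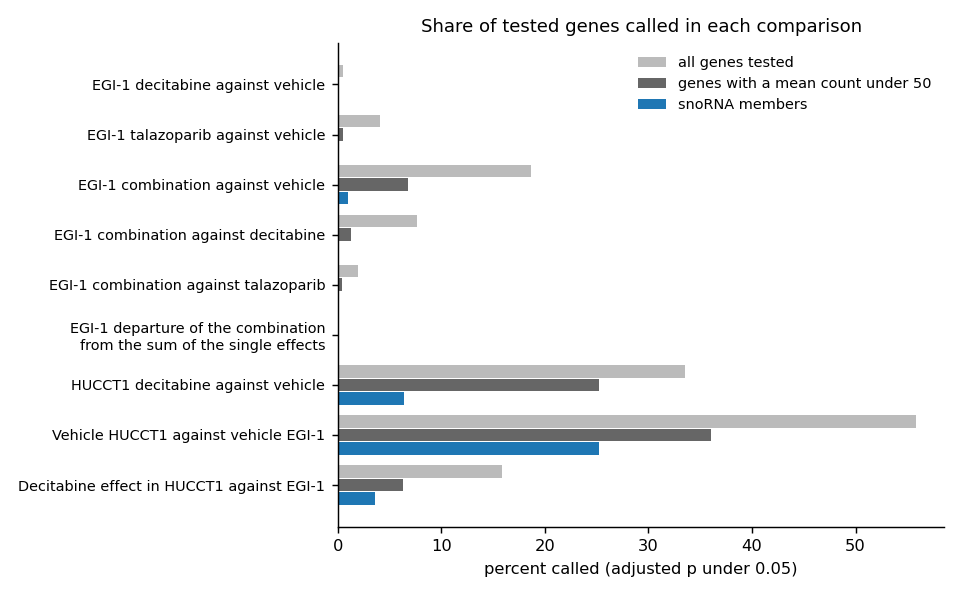
Percent of tested genes with an adjusted p under 0.05 in edgeR's quasi-likelihood test in each comparison, for all genes, for genes with a mean count under 50 and for the snoRNA members. Members stand at 6.41% against 33.5% of all genes for decitabine in HUCCT1 and at 25.2% against 55.8% between the vehicle-treated lines.

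In HUCCT1, decitabine changed 5 of 78 tested members, against 33.5% of all genes and 25.2% of genes with a mean count under 50. SNORD3B-1, SNORD3B-2 and SNORD17 rose (3 members, against 19.6% of all genes) and SNORD39 in MIR31HG and 1 SNORA72 row fell (2 members, against 13.9%). DESeq2 called 3 members (6064 of 22479 genes in all), and 12 had an unadjusted p under 0.05 in edgeR's quasi-likelihood test. The medians were -0.11 for box C/D and -0.03 for box H/ACA, but both turned positive (0.10 and 0.05) without vehicle replicate 1 and the latter (0.08) with scaling on the members alone, so no direction of either class can be given. Markers of the lines moved as well. Of 5 tested markers of other cell types, 5 rose, the collagen gene COL1A1 by 2.62 on the log2 scale, and of 8 bile duct markers 5 fell, among them KRT7 and KRT19, and 1 rose. The part of this shift in the snoRNA values was not tested. Libraries did not overlap for 28 of 78 members, against 65.1% of all genes.

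Of the 3 members that rose, SNORD3B-1 had 264 and 244 counts with vehicle and 371 and 407 with decitabine, 0.58 ± 0.16 on the log2 scale (SE, n = 2 and 2, adjusted p = 0.0046). SNORD3B-2 had 37 and 13 counts with vehicle and 68 and 65 with decitabine, 1.37 ± 0.36 (adjusted p = 0.0044). Both decitabine libraries were above both vehicle libraries in each row, although the vehicle libraries of SNORD3B-2 were themselves far apart. SNORD3A, whose counts were 294 and 243 with vehicle and 269 and 240 with decitabine, gave -0.11 and did not pass. SNORD3C held 0 and 0 counts with vehicle and 5 and 27 with decitabine and was too low to be tested in this line alone. The sum of the 4 U3 rows was 19.6 and 16.5 CPM with vehicle and 22.3 and 24.9 CPM with decitabine, 30.7% higher (exact two-sided permutation test, p = 0.333, the smallest possible).

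SNORD17 was higher by 0.38 ± 0.14 (adjusted p = 0.04, edgeR's quasi-likelihood test), and the value was 0.15 with an adjusted p of 0.61 without decitabine replicate 2, its highest library. Its call was also lost without vehicle replicate 1 (adjusted p = 0.074) or vehicle replicate 2 (adjusted p = 0.119). Without decitabine replicate 2 the value of SNORD3B-1 was 0.46 and its call was lost. That of SNORD3B-2 was 0.79, with its call lost, without vehicle replicate 2, and 2.30 without vehicle replicate 1. OVOL2 and SNX5, the genes around SNORD17, were at 0.28 and -0.17 and did not pass.

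Of the members that fell with decitabine in HUCCT1, SNORD39 in MIR31HG showed the larger change. Its counts were 108 and 94 with vehicle and 43 and 16 with decitabine, and between 1 and 8 in all EGI-1 libraries. The fall was 3.52-fold, at a log2 fold change of -1.81 ± 0.32 (adjusted p = 7.5e-05, edgeR's quasi-likelihood test), and it passed in every alternative run, from -1.32 to -2.63 on leaving out 1 library. MIR31HG, a long non-coding RNA gene that hosts the microRNA miR-31, had 1937 and 2084 counts with vehicle and 1008 and 943 with decitabine, a log2 fold change of -1.08 (adjusted p = 4.1e-08). Host and member therefore fell together. The member lies in an intron of the host, and the part of unspliced host RNA in its counts was not tested.

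SNORA72 on chromosome 3, a row on the strand opposite ECT2 that holds no ACA box in the window, had 34 and 21 counts with vehicle and 11 and 12 with decitabine. It fell by 1.28 on the log2 scale (SE 0.47, adjusted p = 0.038, edgeR's quasi-likelihood test), while ECT2 stood at -0.20 and did not pass. The call of SNORA72 was lost in 5 of 11 alternatives, among them DESeq2 and leaving out vehicle replicate 1 (-0.90, adjusted p = 0.363), decitabine replicate 1 (-1.17) or decitabine replicate 2 (-1.40). The SNORA72 row in NUCKS1, 77.3% identical to it, had 16 and 14 counts with vehicle and 5 and 5 with decitabine and did not pass (-1.59, adjusted p = 0.052), and NUCKS1 itself fell by 1.41.

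**Figure D3:**
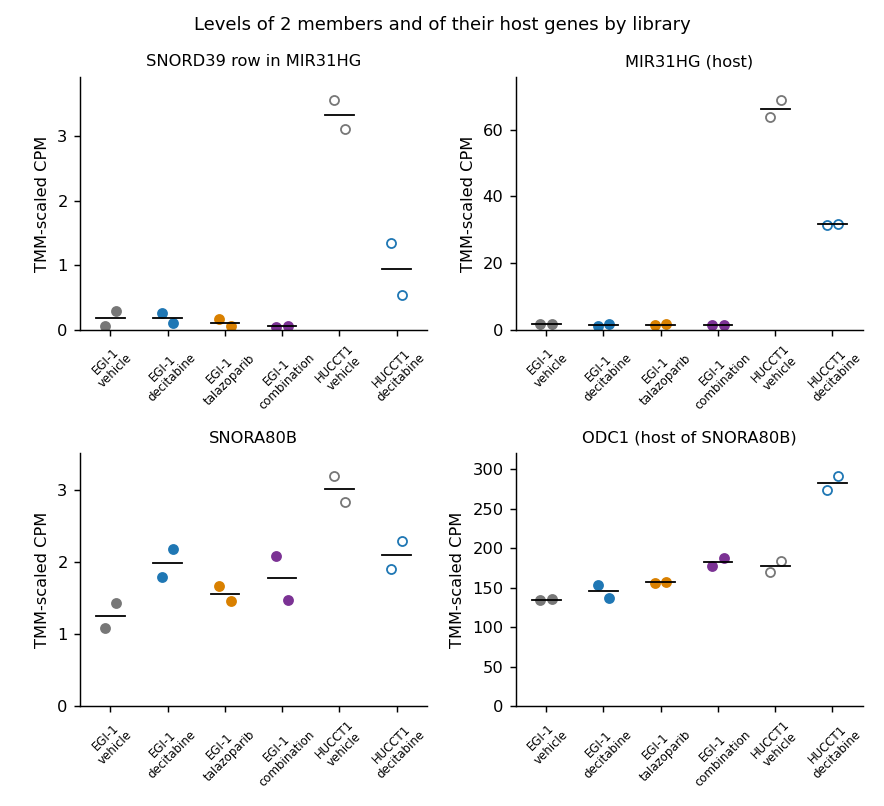
TMM-scaled CPM of SNORD39 in MIR31HG, of MIR31HG, of SNORA80B and of ODC1 in each library (points; open points are HUCCT1) with the mean of each group (lines), on axes that start at 0. SNORD39 and MIR31HG are both high in HUCCT1 vehicle and lower with decitabine, whereas SNORA80B is lower and ODC1 higher with decitabine in HUCCT1.

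The effect of decitabine differed between HUCCT1 and EGI-1 for 4 of 111 tested members, against 15.9% of all genes and 6.33% of genes with a mean count under 50. At an unadjusted p under 0.05 there were 14 members, and DESeq2 called 2 (3714 of 25096 genes in all). Only 1 of the 4, SNORA80B in an intron of ODC1, has a host gene. ODC1 makes the rate-limiting enzyme of polyamine synthesis. SNORA80B had 33 and 40 counts in EGI-1 vehicle and 54 and 60 with decitabine, but 97 and 86 in HUCCT1 vehicle and 61 and 68 with decitabine. The groups did not overlap in either line and moved in opposite directions, at 0.67 in EGI-1 (adjusted p = 0.44) and -0.53 in HUCCT1 (adjusted p = 0.103), neither of which passed alone in edgeR's quasi-likelihood test. The difference was -1.19 ± 0.36 (adjusted p = 0.029). ODC1 itself differed the other way, by 0.56 (adjusted p = 0.00083), with 5164 and 5582 counts in HUCCT1 vehicle and 8791 and 8620 with decitabine.

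The other 3 were U3 rows, all in the direction of a higher effect in HUCCT1. The differences were 0.61 ± 0.20 for SNORD3B-1 (adjusted p = 0.046) and 1.52 ± 0.45 for SNORD3B-2 (adjusted p = 0.023, edgeR's quasi-likelihood test). The call was kept in 3 of 14 alternatives for SNORD3B-1 (adjusted p up to 0.202), in 10 for SNORD3B-2 (up to 0.131, at 0.95 without HUCCT1 vehicle replicate 2, against 2.44 without HUCCT1 vehicle replicate 1) and in 8 for SNORA80B (up to 0.147). SNORD3C was called too, but with 0 and 0 counts in HUCCT1 vehicle its fitted value of 7.25 is no bound. Against a floor of 3 counts over the vehicle group, SNORD3C was at least 10.96-fold higher with decitabine in HUCCT1, with 27 of its 32 counts in 1 library. The number of members called was 0 without EGI-1 vehicle replicate 1 or without EGI-1 decitabine replicate 2, and 6 without HUCCT1 decitabine replicate 1.

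Between the vehicle-treated lines, 28 of 111 tested members differed, 9 higher (28.5% of all genes) and 19 lower (27.3%) in HUCCT1, against 55.8% of all genes in either direction and 36.0% of genes with a mean count under 50. Box C/D gave 16 of the calls and box H/ACA 12, and DESeq2 called 20 members (12672 of 25096 genes in all). The medians of -0.28 for box C/D and -0.36 for box H/ACA lay below that of all genes (-0.01). Scaling on the members alone gave -0.03 and -0.11, and leaving out 1 library gave from -0.15 (without HUCCT1 vehicle replicate 2) to -0.50 (without replicate 1) for box C/D, and from -0.19 (without HUCCT1 vehicle replicate 2) to -0.47 (without EGI-1 vehicle replicate 2) for box H/ACA. The box C/D median was -0.16 without EGI-1 vehicle replicate 1 and -0.42 without replicate 2. Membership bears on these values: of the 28 members that met the rule within EGI-1 alone, 11 were called lower and 0 higher, which the rule favours. Among the 78 members that met it within both lines, 8 were called higher and 8 lower.

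Of the members higher in HUCCT1, SNORD39 in MIR31HG led, at a log2 fold change of 4.24 with MIR31HG itself at 5.27. It met the rule within HUCCT1 alone, so its direction follows from how members were chosen. SNORA28 in EIF5, a translation initiation factor gene, had 32 and 26 counts in EGI-1 vehicle and 141 and 99 in HUCCT1 vehicle, 1.99 ± 0.28 (adjusted p = 3.4e-06, edgeR's quasi-likelihood test), while EIF5 was at 0.56. SNORA80B gave 1.26 with ODC1 at 0.39, and SNORA66 gave 0.94 with RPL5 at 0.16, which did not pass. SNORD99 gave 1.29 with its host SNHG12 at 0.85, but kept its call in 3 of 11 alternatives, and leaving out any 1 vehicle library ended it (adjusted p up to 0.222). Of the U3 rows, SNORD3A was higher in HUCCT1 by 0.91 and SNORD3B-1 by 0.37, while SNORD3B-2 was lower, at -1.35. SNORD3B-1 kept its call in 3 of 11 alternatives and lost it without any 1 vehicle library (adjusted p up to 0.198). SNORD3B-2 was at -0.79 (adjusted p = 0.052) without HUCCT1 vehicle replicate 2 and at -2.28 without replicate 1. SNORD17 was higher by 0.60, a call kept in all 11 alternatives.

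The 4 members with the largest falls, SNORD3C, SNORA48B, SNORD65C and a SNORA70 row, all met the rule within EGI-1 alone, so their direction follows from how members were chosen. Of these, 2 were at 0 in both HUCCT1 vehicle libraries. SNORD3C had 96 and 58 counts in EGI-1 vehicle, so that HUCCT1 was at least 64.3-fold lower, and SNORA48B, an intergenic row on chromosome X, had 14 and 12, at least 10.8-fold lower, both against a floor of 3 counts over the group. SNORD65C had 27 and 31 counts in EGI-1 vehicle and 1 and 4 in HUCCT1 vehicle (log2 fold change -3.53), and IGF2BP3, an mRNA-binding protein gene on the opposite strand, was at -2.69. The SNORA70 row, in an intron of the unnamed gene ENSG00000258077, had 36 and 49 counts against 7 and 1 (log2 fold change -3.43), and that gene was at -4.01. The value of the SNORA70 row was -5.30 without HUCCT1 vehicle replicate 1 and -2.65 without replicate 2, and that of SNORD65C -2.87 and -4.75.

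The 3 members in RPS12, a small ribosomal subunit protein gene, were called lower in HUCCT1, as was their host. SNORD100 had 75 and 61 counts in EGI-1 vehicle and 24 and 19 in HUCCT1 vehicle, a log2 fold change of -1.71 ± 0.29 (adjusted p = 3.6e-05, edgeR's quasi-likelihood test). SNORA33 had 74 and 49 counts against 27 and 15 (-1.59), and SNORD101 had 58 and 56 against 43 and 24 (-0.82). The calls of SNORD100 and SNORA33 held in all 11 alternatives, but SNORD101 lost its call in 5, with -0.46 (adjusted p = 0.242) without HUCCT1 vehicle replicate 2, -1.29 without HUCCT1 vehicle replicate 1 and an adjusted p of 0.078 without EGI-1 vehicle replicate 2. The groups did not overlap in any of the 3, and RPS12 stood at -1.85 with 8509 and 7074 counts against 2364 and 2117.

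Across members, the line difference ran with that of the gene around the snoRNA. Over 87 tested members with a host (73 genes), Pearson's r between the log2 fold changes was 0.71 and Spearman's rho 0.55, and r was 0.61 without SNORD39. Member and host had the same sign in 60 of 87 cases, and in 47 of the 62 with a called host. These values use the longest host alone. SNORA73B, paired here with RCC1, stood at -0.01, while SNHG3, which also contains it, was at 1.23. Of the 22 called members with a host, 22 had the sign of their host, and the host was itself called for 20. Some of these entered through the line in which they are high. Over the 62 with a host that met the rule within both lines, r was 0.54 and rho 0.49, the signs were the same in 42, and 13 of 13 called members had the sign of their host. Members and hosts were read from the same libraries, and counts on an intronic member can come from unspliced host RNA, so these values are a description. Over the 14 members that lie only opposite a gene, r was 0.91 and rho 0.60, and r was 0.63 without SNORD65C, while over the 9 that met the rule within both lines r was 0.65 and rho 0.23. Whether reads of the other strand entered these rows was not tested, as the strand setting of the counting step is not stated. For decitabine in HUCCT1 r was 0.50 over 63 members with a host, and in the 6 comparisons within EGI-1 it ranged from 0.09 to 0.28.

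**Figure D4:**
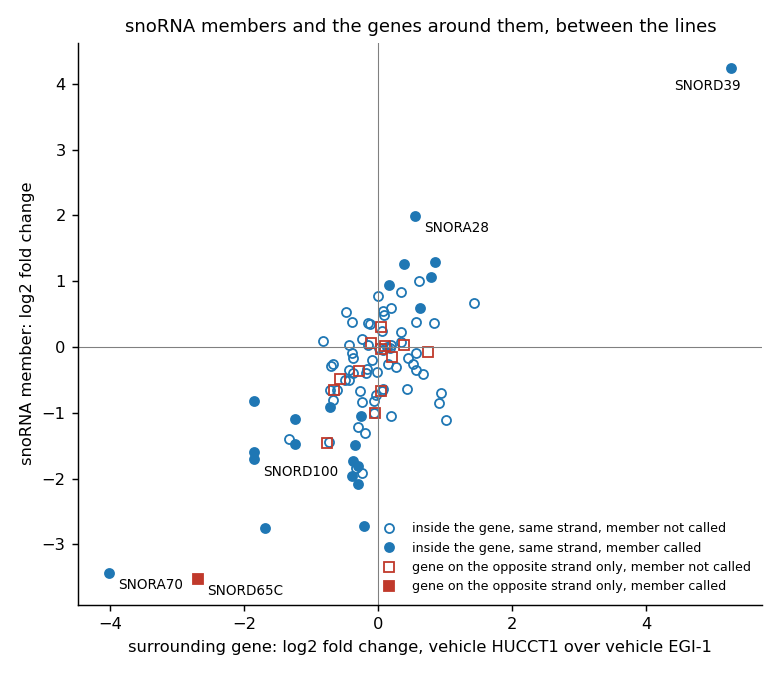
Log2 fold change (vehicle HUCCT1 over vehicle EGI-1) of each tested snoRNA member against that of the gene it lies in on the same strand (circles) or on the opposite strand only (squares), with filled symbols for members with an adjusted p under 0.05. Called members lie in the upper right and lower left quadrants, from SNORD65C at -3.53 to SNORD39 at 4.24.

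The protein partners of the snoRNAs showed small changes, each measured on mRNA. Of the 4 box C/D core genes, the methyltransferase gene FBL was lower (-0.29, adjusted p = 0.0037) and SNU13 higher (0.19, adjusted p = 0.043) with the combination in EGI-1, by edgeR's quasi-likelihood test. FBL was also lower with the combination than with decitabine (-0.31, adjusted p = 0.0049), and SNU13 was higher with decitabine in HUCCT1 (0.48, adjusted p = 0.0014, edgeR's quasi-likelihood test). Between the lines, where 28.5% of all genes were called higher and 27.3% lower, 3 of the 4 were lower in HUCCT1, namely NOP58 (-0.43), FBL (-0.26) and SNU13 (-0.86). Of the 4 box H/ACA core genes, 3 were higher in HUCCT1, namely DKC1, the dyskerin gene (0.31), NHP2 (0.48) and NOP10 (0.74), and 0 were called in the treatment comparisons within a line. The decitabine effect was higher in HUCCT1 than in EGI-1 for SNU13 (0.46, adjusted p = 0.0074) and DKC1 (0.32, adjusted p = 0.03, edgeR's quasi-likelihood test). No core gene of either class was called with a single drug in EGI-1.

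Wider lists of the pathway were counted beside all genes, of which 18.7% were called with the combination, 33.5% with decitabine in HUCCT1 and 55.8% between the lines. Of 46 tested genes of ribosome biogenesis, 4 were higher and 1 lower with the combination, 8 higher and 1 lower with decitabine in HUCCT1, and 7 higher and 26 lower between the lines (median -0.30). RRP12 (0.88), DIMT1 (0.74) and BYSL (0.63) were among those that rose with decitabine in HUCCT1. Of 29 tested snoRNA host genes from a list of 32, most of them long non-coding (CWF19L1 is protein-coding), 2 were higher and 1 lower with the combination (SNHG16 at 0.31 and DANCR at -0.43 among them), 4 were higher and 4 lower with decitabine in HUCCT1, and 14 were higher and 3 lower in HUCCT1 than in EGI-1 with vehicle, with SNHG3 at 1.23 and DANCR at 1.01. Of 30 snoRNA processing genes, which include the exosome, 2 were higher with the combination, 2 were higher and 3 lower with decitabine in HUCCT1 (EXOSC10 at -0.60 among the latter), and 7 were higher and 5 lower between the lines. Of 15 genes of snoRNP assembly, DDX21 was higher (0.27) and RPAP3 lower (-0.25) with the combination, ZNHIT6 was higher (0.29) and COIL lower (-0.34) with decitabine in HUCCT1, and 4 were higher and 8 lower between the lines, with ZNHIT6 at 0.81 and TGS1, the cap methylase of U3, at -0.66.

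Of the other small RNAs in the table, 3 of 17 tested rows were called higher with decitabine in HUCCT1 (19.6% of all genes), namely RNU1-1 (1.92), RNU4ATAC (1.45) and RN7SL3 (1.23), and 6 of 18 were called lower in HUCCT1 than in EGI-1 with vehicle (27.3% of all genes), VTRNA1-3 (-2.63) and RN7SL3 (-2.27) among them. RN7SL1, the RNA of the signal recognition particle, had 59562 to 144423 counts per library, far above any snoRNA row, while RMRP, RPPH1, RN7SK and SCARNA2 were at 0 in all 12 libraries.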

How the data were processed

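Gene counts of 12 libraries were deposited by the authors as 1 table of raw counts per Ensembl gene. The submitters' processing notes name fastp, Trim Galore, HISAT2, featureCounts and GRCh38, whereas the study's methods name fastp, STAR and RSEM and describe EGI-1 only. The counts were whole numbers in a featureCounts layout. The strand setting and the treatment of reads that fit several places or overlap several genes are not given in the sources used here, and either can set counts of repeated, nested or exonic snoRNA rows. The names of talazoparib libraries carry the number 50, although the labels give 200 nM.

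Members, gene lists and named genes were chosen with earlier results of these data known. Named were the 6 members of each class with the highest mean CPM, and in each comparison the called members with the largest changes and no overlap between groups, up to 4 in each direction, with their hosts, and called genes of the lists. Others, such as the RPS12 members, were chosen after their values were seen. Positions, hosts and sequences came from the GENCODE 44 annotation and the GRCh38 sequence. All 116 members matched an identifier with the same version.

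edgeR 4.0.16 (R 4.3.3, limma 3.58.1) fitted quasi-likelihood models with TMM scaling and its default filter on low counts to the 8 EGI-1 libraries (22406 genes), the 4 HUCCT1 libraries (22479 genes) and all 12 (25096 genes, for contrasts between the lines). The filter kept 100, 78 and 111 members. P-values were adjusted over all tested genes by Benjamini-Hochberg at 0.05. Each standard error (SE) was worked back from the test, as the absolute log2 fold change over the square root of its F statistic. Fits were tested on simulated counts. Alternatives were DESeq2 1.42.0, other scalings, no filter, a replicate block, fits of fewer or more libraries and leaving out each library. DESeq2 ran with its default independent filtering, and the gene totals given beside its calls are the genes entered in the fit.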

Additional observations from a re-analysis of the deposited data

Results flagged for a closer look

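The effect of decitabine differed between the lines for 4 members, by the interaction term of edgeR's quasi-likelihood test. SNORA80B differed by -1.19 on the log2 scale, higher with decitabine in both EGI-1 libraries and lower in both HUCCT1 libraries. SNORD3B-1 differed by 0.61 and SNORD3B-2 by 1.52, and SNORD3C had a fitted difference of 7.25 that rests on 32 counts in HUCCT1 decitabine, 27 of them in replicate 2, against 0 in HUCCT1 vehicle. The decitabine dose was 0.5 μM in EGI-1 and 1 μM in HUCCT1, so line and dose cannot be told apart. The call of SNORD3C was lost when any library of the comparison was left out except HUCCT1 decitabine replicate 1. Groups of 2 are too small for a test of single libraries, although EGI-1 combination replicate 2 held 381 counts of PTPRC and 148 of CD3E, leukocyte markers, against 2 and 0 in the other combination library.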

How the results depend on the processing

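No called member turned its direction in any alternative. Counts of called members were as follows where they moved, under edgeR unless DESeq2 is named. With the combination in EGI-1, 1 member was called, against 0 with relative log expression scaling, 2 with upper-quartile scaling, 0 with DESeq2, 2 with the compared groups alone and 0 to 2 leaving out each library. With talazoparib, 1 was called instead of 0 with the compared groups alone. For the combination against decitabine, 1 was called instead of 0 without the filter, and 0 to 1 leaving out each library. With decitabine in HUCCT1, 5 were called, against 3 with DESeq2, 8 in the fit of all 12 libraries and 2 to 7 leaving out each library. For the difference in the decitabine effect, 4 were called, against 2 with scaling on the members alone, 2 with DESeq2 and 0 to 6 leaving out each library. Between the lines the count was 20 to 30. The causes were not tested.

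Same-numbered libraries share only a number. Correlations of their deviations ranged from -0.19 to 0.12 in EGI-1, and the single HUCCT1 pair gave 0.21. With a replicate block by title number or by library name, 0 members were called with the combination. The block gave 6 members with decitabine in HUCCT1, 24 between the lines and 4 for the difference in the decitabine effect.

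Scaling on the members alone moved the median of all genes by 0.14 (decitabine), 0.11 (talazoparib) and 0.21 (combination) in EGI-1 and by 0.23 between the lines, and upper-quartile scaling by -0.12 between the lines. Low counts and 2 libraries a group both limit single members.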
